A study of Mus musculus with 12 samples.

Results

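Ccr2 and 4 genes for chemokines of the monocyte-attracting family, Ccl2, Ccl7, Ccl8 and Ccl12, were followed in A20 tumors after injection of a TLR4 agonist. These 5 genes were chosen by name from the 770 genes of the nCounter mouse PanCancer Immune Profiling Panel, and all 5 were measured in every tumor, with a lowest deposited count of 107. A20 is a B cell lymphoma line of Balb/c mice. Female Balb/c mice, aged 7 to 8 weeks when purchased, received 5000000 A20 cells under the skin, and about 7 days later the established tumors were injected every other day, 3 times in all. There were 3 groups of 4 tumors, each tumor from a mouse of its own. The GLA-SE group received 10 ug of GLA, a synthetic TLR4 agonist of the lipid A type, in 50 ul of 2% stable emulsion (SE). The SE group received the emulsion without the agonist, and the PBS group received buffered saline. The study also calls GLA-SE G100. All tumors were taken 2 hours after the last injection, so each value reflects that time only, in whole tumor RNA that mixes lymphoma and host cells. Every group carried the same transplanted line in mice of 1 strain and 1 sex.

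CCR2 is the chemokine receptor through which inflammatory monocytes leave the bone marrow and enter inflamed tissue, and it is also found on subsets of T cells and NK cells. CCL2, CCL7 and CCL12 are secreted proteins that act on CCR2 in the mouse, and CCL8 is a close relative that in the mouse acts mainly on CCR8. The ligands are made by macrophages, fibroblasts, endothelium and other cells after inflammatory signals, TLR4 signals included. In bulk RNA, fewer cells of a type and less RNA per cell cannot be told apart.

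In GRCm38.p6 the 4 ligand genes lie in 1 cluster on chromosome 11 that spans 81223 bp. Ccl2 is at chr11:82035577-82037452, Ccl7 at chr11:82045712-82047525, Ccl12 at chr11:82101845-82103399 and Ccl8 at chr11:82115185-82116799. Ccl11 lies between Ccl7 and Ccl12. Ccr2 is at chr9:124101918-124109140. RefSeq promoter windows are shown for Ccl8 and Ccl12. No window was available for Ccl2 or Ccl7, and that of Ccr2 is not shown. Ccl8, Ccl12 and Ccr2 ranked the GLA-SE tumors in the same order as each other. Ccl2 and Ccl7 shared an order of their own. A link between promoter letters and these orders was not tested. The 250 bases before each annotated start are printed 5′ to 3′ on the plus strand (chr11:82114935-82115184 for Ccl8 and chr11:82101595-82101844 for Ccl12), with the runs of at least 8 bases that both windows hold in capitals.
Ccl8: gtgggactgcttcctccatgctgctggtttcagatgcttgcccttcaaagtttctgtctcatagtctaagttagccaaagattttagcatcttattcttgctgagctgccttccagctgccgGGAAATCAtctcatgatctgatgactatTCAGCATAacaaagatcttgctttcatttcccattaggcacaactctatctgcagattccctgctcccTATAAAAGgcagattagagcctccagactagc
Ccl12: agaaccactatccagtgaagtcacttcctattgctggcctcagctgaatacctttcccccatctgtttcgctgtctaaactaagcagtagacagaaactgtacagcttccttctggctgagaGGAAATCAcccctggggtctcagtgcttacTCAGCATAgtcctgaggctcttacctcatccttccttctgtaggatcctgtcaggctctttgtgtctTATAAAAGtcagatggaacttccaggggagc

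The windows shared 3 such runs, in the same order. GGAAATCA began 128 bases before the start in both, TCAGCATA began at -100 in Ccl8 and -98 in Ccl12, and TATAAAAG began at -32 and -31. Of 32536 promoter windows of the same length, 0.987% held the first of these runs on either strand, 0.486% the second and 1.51% the third. The third run contains the TATA box letters TATAAAA, which 4.94% of the windows held. Neither window held the AP-1 letters TGANTCA on either strand, which 6.73% of the windows held.

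Counts of the panel depend on each probe, so levels were compared between tumors and never between genes. The scaled counts given here set each tumor to the geometric mean of the same 16 reference genes. Total deposited counts ranged from 810260 to 1612415 per tumor. Over all 20 reference genes of the panel, SE replicate 4 had the lowest geometric mean, 959 against 1460 to 2587 in the other 11 tumors. Its scaled counts therefore rest on the largest correction. The lymphoma's B cell markers were measured in every tumor, with a sum over 7 genes of 12525 to 21376 scaled counts.

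All 4 chemokine genes and Ccr2 were higher in GLA-SE than in PBS tumors, by 2.59-fold to 4.79-fold. No GLA-SE tumor overlapped a PBS tumor for any of the 5 genes. The question was whether the injected agonist in emulsion changed Ccr2 and the 4 genes of this chemokine family. The rise was part of a broad shift of the panel. In the same fit 68.4% of the 750 genes tested were higher in GLA-SE, 63.7% were higher without overlap between the groups, and the median log2 fold change was 0.90. The count of 5 of 5 genes stands beside those shares.

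Ccl2, the archetypal monocyte attractant, had scaled counts of 1137, 1172, 989 and 1242 in PBS replicates 1 to 4. In GLA-SE replicates 1 to 4 it had 1836, 2846, 5882 and 3995. The PBS tumors lay close together and the GLA-SE tumors spread widely, with replicate 3 highest. The log2 fold change was 1.68 ± 0.32 (standard error of the fit, n = 4 per group, edgeR adjusted p = 0.00211), a 3.21-fold rise with a 95% interval of 1.95 to 5.27.

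Ccl7 encodes a chemokine that also binds CCR1 and CCR3, and it had the largest fold change of the 5 genes. Its scaled counts were 135, 106, 138 and 144 in PBS and 268, 428, 1198 and 615 in GLA-SE. GLA-SE replicate 3 again stood highest, and the tumors kept the order they had for Ccl2. The log2 fold change was 2.26 ± 0.42 (edgeR adjusted p = 0.00211), the 49th largest of 750. Without GLA-SE replicate 3 it was 1.74.

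Ccl8 was the steadiest of the 5 within the GLA-SE group. Its scaled counts were 6021, 4081, 4446 and 5553 in PBS and 11120, 16966, 11015 and 13728 in GLA-SE, a range of 1.54-fold within the treated group. The log2 fold change was 1.39 ± 0.18 (edgeR adjusted p = 0.000428). Here GLA-SE replicate 3, the highest for Ccl2 and Ccl7, was the lowest.

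Ccl12, a CCR2 ligand of the mouse, had 282, 204, 233 and 290 scaled counts in PBS and 540, 898, 467 and 712 in GLA-SE. The log2 fold change was 1.37 ± 0.23 (edgeR adjusted p = 0.00120). GLA-SE replicate 2 was highest and replicate 3 lowest, as for Ccl8.

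Ccr2 itself had 653, 480, 267 and 579 scaled counts in PBS and 1266, 1927, 839 and 1417 in GLA-SE. The log2 fold change was 1.46 ± 0.32 (edgeR adjusted p = 0.00442), a 2.75-fold rise with a 95% interval of 1.66 to 4.57. The highest PBS tumor and the lowest GLA-SE tumor were the closest of the 5 genes in log terms. For each of the 5 genes the exact two-sided permutation test over the 70 assignments gave 0.0286, the smallest p that 4 tumors against 4 allow (0.0441 adjusted over the 750 genes).

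**Figure D1:**
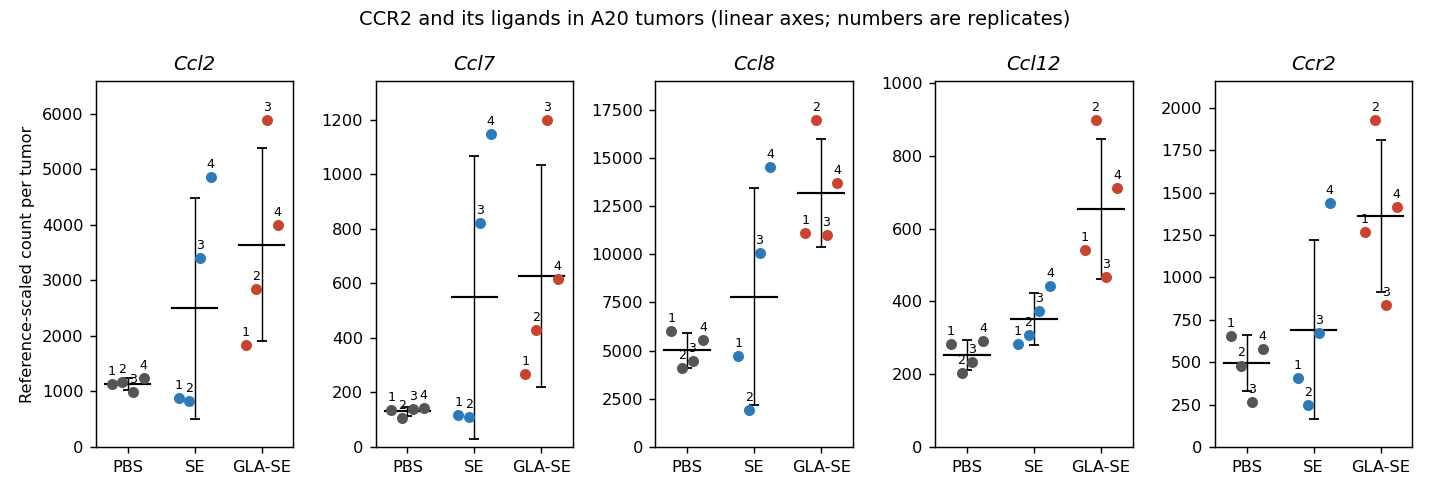
Scaled counts of the 5 genes in each tumor on linear axes (points, labelled with the replicate number), with the group mean and SD (bars, n = 4). The GLA-SE tumors lay above all PBS tumors in every panel. The SE tumors spread up to the GLA-SE range from the PBS range for Ccl7, and from below the PBS range for Ccl2, Ccl8 and Ccr2.

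The size of these rises depended on the scale. Relative to the median gene of the panel, the log2 rise was 0.78 for Ccl2, 1.36 for Ccl7, 0.49 for Ccl8, 0.47 for Ccl12 and 0.56 for Ccr2. With TMM scaling, which centres the panel, Ccl2, Ccl7 and Ccl8 kept an adjusted p under 0.05, while Ccl12 (log2 fold change 0.49, adjusted p = 0.119) and Ccr2 (0.60, adjusted p = 0.144) did not. With each tumor scaled to the panel median, Ccl7 alone did, at a log2 fold change of 0.88 (adjusted p = 0.0404). All 5 kept a positive sign under each scaling. Of the genes called, 513 were higher and 3 lower with reference-gene scaling, 148 and 168 with TMM, and 61 and 307 with the panel median.

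The emulsion alone gave divided values. SE replicates 1 to 4 had 880, 818, 3408 and 4865 scaled counts for Ccl2 and 117, 109, 822 and 1146 for Ccl7. For Ccl2, replicates 1 and 2 were below every PBS tumor and, for Ccl7, within the PBS range, and for both genes replicates 3 and 4 lay within the GLA-SE range. Ccl8 (4702, 1902, 10065 and 14542) and Ccr2 (404, 249, 670 and 1440) had the same order of tumors on scaled counts. Replicate 2 was lowest and replicate 4 highest. As deposited, Ccl8 was highest in replicate 3, at 8081 against 7209 in replicate 4. Ccl12 varied least, at 282, 309, 374 and 442.

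No member was called in SE against PBS, where edgeR called 0% of the 750 genes as higher. At an unadjusted p under 0.05, edgeR gave 134 genes in all, Ccl7 among them, and DESeq2 with the same reference-gene factors called 53 genes after adjustment, among them Ccl7 (log2 fold change 2.07, adjusted p = 0.0458). The edgeR log2 fold changes were 1.13 for Ccl2 (95% interval -0.18 to 2.44), 2.06 for Ccl7 (0.29 to 3.84; 1.41 without SE replicate 4), 0.63 for Ccl8 (-0.61 to 1.88), 0.48 for Ccl12 (-0.04 to 1.00) and 0.48 for Ccr2 (-0.76 to 1.72), with adjusted p from 0.256 to 0.556. These intervals include a rise as large as that in GLA-SE for Ccl2, Ccl7, Ccl8 and Ccr2. The signs for Ccl8 and Ccr2 turned negative with TMM and with the panel median, and Ccr2 also without SE replicate 4. None of the 5 genes had all SE tumors above all PBS tumors, which 8% of the panel did.

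In SE replicates 3 and 4, markers of other cells were high beside these genes. The 12 monocyte and macrophage markers summed to 74672 and 109266 scaled counts there and to 24905 and 31300 in SE replicates 1 and 2, against 29510 to 37899 in PBS. The marker genes Lyz2 and Mrc1 together gave most of this sum in every tumor, so it mainly follows those genes. The 10 endothelium and fibroblast markers summed to 28192 and 120659 in SE replicates 3 and 4. The sums were 3530 and 4405 in SE replicates 1 and 2, against 4120 to 9299 in PBS. Most of the 120659 came from the collagen genes Col1a1 (24479) and Col3a1 (90245). The part of these markers in the result was not tested.

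GLA-SE was set against SE to ask what the agonist added to the emulsion. No member was called as higher in GLA-SE, and 2.13% of the 750 genes were. The log2 fold changes were 0.55 for Ccl2 (95% interval -0.92 to 2.01), 0.20 for Ccl7 (-1.71 to 2.10), 0.76 for Ccl8 (-0.50 to 2.02), 0.90 for Ccl12 (0.27 to 1.53) and 0.98 for Ccr2 (-0.24 to 2.20). The sign for Ccl7 turned with the panel median and without any one of GLA-SE replicate 3, SE replicate 1 or SE replicate 2.

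Ccl12 was the 1 gene of the 5 whose GLA-SE tumors all lay above the SE tumors, with a lowest value of 467 against a highest of 442, and 14.7% of the panel did so. Its adjusted p was 0.146 with edgeR. It was 0.0406 with all 12 tumors in one fit, 0.0122 with DESeq2 on the reference-gene factors and 0.0481 without SE replicate 4. Ccr2 without SE replicate 4 had a log2 fold change of 1.63 (adjusted p = 0.0430), and on the counts as deposited 1.33 (adjusted p = 0.0499). The whole panel moved with that tumor too, since 105 genes were called without it and 16 with it.

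**Figure D2:**
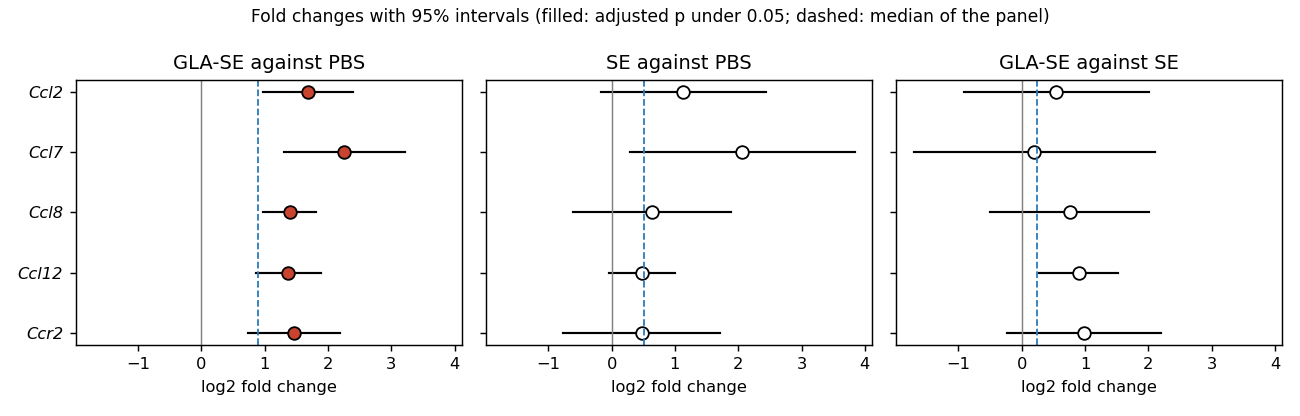
Log2 fold changes of the 5 genes from edgeR (points) with 95% intervals (lines) in the 3 comparisons, with filled points for an adjusted p under 0.05 and the dashed line at the median of the 750 genes. All 5 points are filled in GLA-SE against PBS, where the panel median is 0.90, and none in the comparisons with SE. The signs of Ccl8 and Ccr2 in SE against PBS and of Ccl7 in GLA-SE against SE turn under other scalings.

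On scaled counts the means of all 5 genes stood in the order PBS, SE, GLA-SE. That order was not stable for Ccl7, Ccl8 and Ccr2, whose signs against SE turned under other scalings. Without SE replicate 4 the log2 fold change of Ccr2 in SE against PBS was -0.17, and its medians in the full groups were 530 in PBS and 537 in SE. For Ccr2 the group means were 495 ± 168, 691 ± 529 and 1362 ± 449 scaled counts (SD, n = 4 each), and for Ccl2 they were 1135 ± 107, 2493 ± 1989 and 3640 ± 1735. The SE mean was separated from neither neighbour by edgeR, and PBS and GLA-SE were separated from each other. The spread within PBS was small for Ccl2, with a coefficient of variation of 9.43%, and larger for Ccr2, at 33.9%.

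The 5 genes fell into 2 orders within the GLA-SE group. Ccl2 and Ccl7 were highest in replicate 3, then 4, 2 and 1. Ccl8, Ccl12 and Ccr2 were highest in replicate 2, then 4, 1 and 3. In SE, on scaled counts, the 5 genes all had replicate 4 highest and replicate 3 next. The deposited counts did not share that order. As deposited, replicate 3 was highest for Ccl2 (2736 against 2412 in replicate 4), Ccl7 (660 against 568) and Ccl8 (8081 against 7209). For Ccl12 replicate 4 was lowest at 219, and for Ccr2 it was highest at 714. These orders were seen after the values were known and carry no test.

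**Figure D3:**
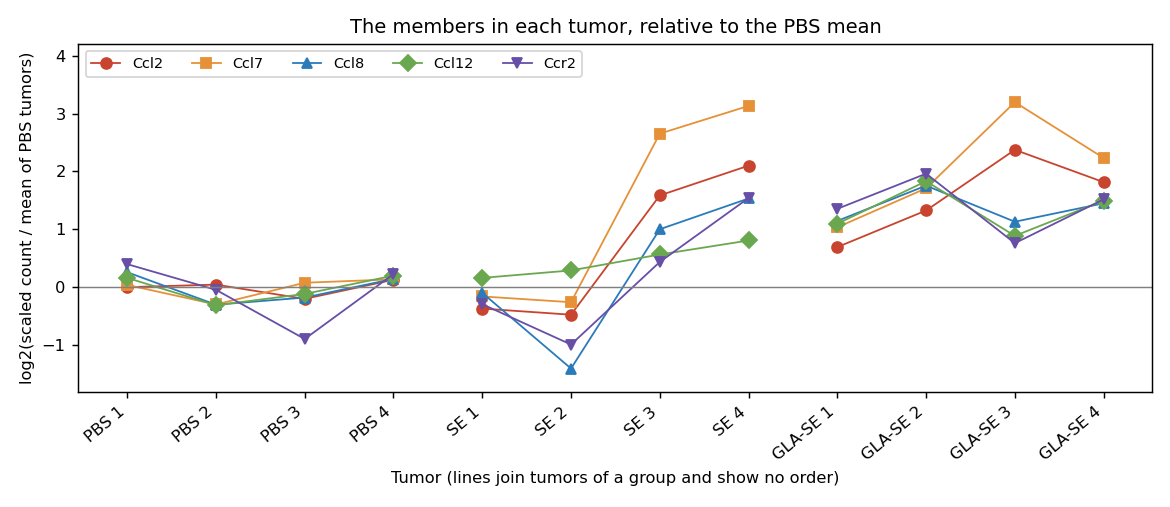
Log2 of each gene's scaled count over its PBS mean in each of the 12 tumors (lines join tumors of a group and carry no order). Ccl2 and Ccl7 peak in GLA-SE replicate 3, where Ccl8, Ccl12 and Ccr2 are lowest, and in SE replicates 1 and 2 the 5 genes lie near or below the PBS mean except Ccl12.

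Across the 12 tumors, on log2(scaled count + 1), the panel gene most like Ccl2 was Ccl7 and the reverse (Pearson r = 0.98, and 0.99 after group means were taken away, among 699 genes). The next most like Ccl2 were Myd88, the adaptor of TLR4, and Irak3, a brake on TLR signals. Plaur and Tfe3 followed for Ccl7. Ccl8 was most like Itgam, Tlr8 and C1ra (r = 0.95 to 0.96), the first a macrophage and neutrophil integrin. Ccl12 was most like the interferon-induced GTPase gene Irgm2, then Amica1 and Spp1 (0.92 to 0.95). Ccr2 was most like the NK cell receptor gene Ncr1, then Tnfrsf14 and Ifi35 (0.94 to 0.95), and Ccl8 was 4th in its order at 0.93. These values describe tumors that share group, cell content and scaling.

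No change in the proportion of a ligand to Ccr2 passed a test in the full groups. CCL8 acts mainly on CCR8 in the mouse, so its ratio to Ccr2 is not that of a ligand to its main receptor. No ratio to Ccr8 was taken. The log2 ratio of each ligand to Ccr2 within a tumor, which depends on the scaling only through the pseudocount of 1, differed between GLA-SE and PBS by 0.08 for Ccl2, 0.57 for Ccl7, -0.09 for Ccl8 and -0.13 for Ccl12, with exact permutation p from 0.629 to 0.914. None of the 12 such tests over the 3 comparisons had an exact p under 0.05 (adjusted p over the 12 of 0.943). The Ccl8 ratio had means of 3.40 ± 0.44 in PBS and 3.31 ± 0.27 in GLA-SE on the log2 scale (SD, n = 4), and the Ccl2 and Ccl7 ratios were widest in GLA-SE, with SDs of 1.07 and 1.28. For Ccl12 in GLA-SE against SE the difference without SE replicate 4 was -0.69 (exact permutation p = 0.0286). That is the smallest p these group sizes allow, and it was not adjusted for the series of tests that each left out a tumor. The groups were barely apart, with -0.844 in GLA-SE replicate 3 and -0.841 in SE replicate 3.

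Monocyte and macrophage markers rose beside the 5 genes. Of 12 markers, 11 were higher in GLA-SE than in PBS with reference-gene scaling, beside 68.4% of the panel. Their median log2 fold change was 1.62 against 0.90 over the panel. The sum, most of it from Lyz2 and Mrc1, ranged from 29510 to 37899 scaled counts in PBS, from 24905 to 109266 in SE and from 85563 to 126682 in GLA-SE. No marker was at 0 in any tumor. Cd14, the TLR4 co-receptor, had a log2 fold change of 3.71 ± 0.93 (edgeR adjusted p = 0.00777; 2.00 without GLA-SE replicate 3), the IgG receptor gene Fcgr1 of 2.62 ± 0.23 (0.000154) and the scavenger receptor gene Msr1 of 1.96 ± 0.23 (0.000249). Set against the mean of these markers in the same tumor, the members differed between GLA-SE and PBS by -0.11 for Ccl2, 0.38 for Ccl7, -0.28 for Ccl8, -0.33 for Ccl12 and -0.19 for Ccr2 on the log2 scale. None of the 15 such tests over the 3 comparisons had an exact permutation p under 0.05, and the smallest adjusted p over the 15 was 0.857. Without SE replicate 1, Ccl8 relative to the markers was lower in SE than in PBS by a log2 difference of -0.67 (exact permutation p = 0.0286). That is the smallest p these group sizes allow. It came from a series of tests that each left out a single tumor, and it was not adjusted.

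**Figure D4:**
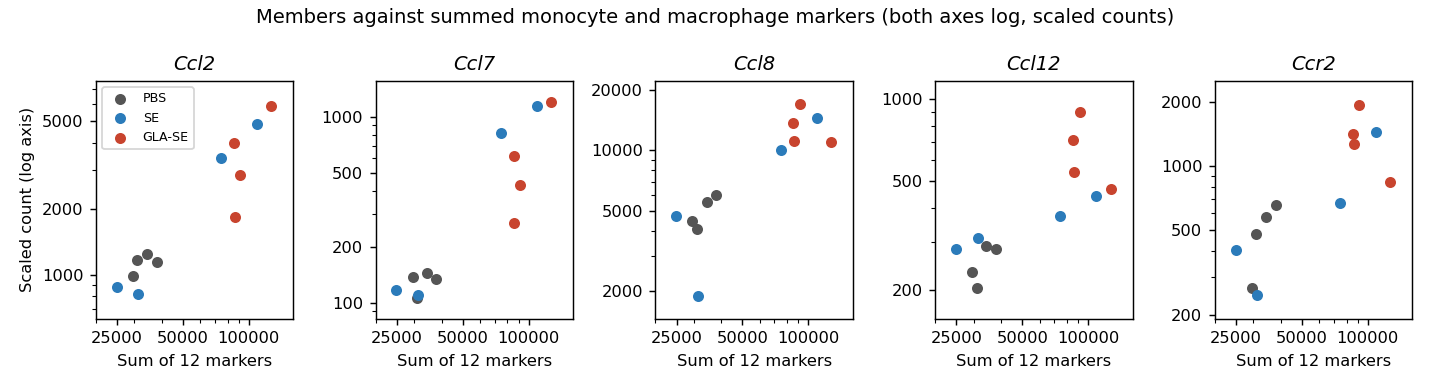
Scaled counts of each member against the summed scaled counts of the 12 monocyte and macrophage markers, both on log axes, with 1 point per tumor coloured by group. The GLA-SE tumors and SE replicates 3 and 4 lie at 74672 or more on the horizontal axis, and the PBS tumors and SE replicates 1 and 2 lie at 37899 or less. Lyz2 and Mrc1 together give most of the sum in every tumor.

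Markers of other cell types were counted in GLA-SE against PBS in the same way, beside the 68.4% of the panel that was higher. Of the endothelium and fibroblast markers 10 of 10 were higher, of neutrophil markers 4 of 8, of T cell markers 4 of 6, of NK cell markers 3 of 4, of mast cell and eosinophil markers 4 of 5 and of dendritic cell markers 1 of 4. Several of these calls were lost when a single tumor was left out. Without PBS replicate 3, the T cell marker genes Cd3d, Cd3e, Cd3g and Cd4 had an edgeR adjusted p over 0.05. So did the NK cell marker gene Klrc1 and the endothelial Kdr, Tek and Tie1, the range being 0.0503 to 0.105. Cd3d, Cd3e, Cd3g, Kdr, Tek and Tie1 were also over 0.05 without some other single tumors. The highest was 0.122, for Tek without GLA-SE replicate 2. Of 7 B cell markers, none was higher and 2 were lower, Ms4a1 (log2 fold change -0.44 ± 0.11, edgeR adjusted p = 0.00781) and Cd79b (-0.41 ± 0.10, 0.00637). GLA-SE replicate 3, which was highest for Ccl2 and Ccl7, had a neutrophil marker sum of 11454 scaled counts against 1248 to 2933 in the other 3 GLA-SE tumors and 285 to 335 in PBS. The part of these cells in the members' values was not tested.

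Ccr1, which encodes a receptor for CCL7, was higher in GLA-SE than in PBS, with a log2 fold change of 2.17 ± 0.31 (edgeR adjusted p = 0.000570). It had 81.3 to 174 scaled counts in PBS and 378 to 700.0 in GLA-SE. Ccr3, the eosinophil receptor, had overlapping groups (0.89 ± 0.43, adjusted p = 0.0918), and Ccr8, the receptor gene for CCL8, did not pass the test although its groups did not overlap (0.70 ± 0.28, adjusted p = 0.0545). Ccr3 and Ccr8 had low counts, with PBS and GLA-SE means of 20.3 to 47.6.

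Along the chromosome 11 cluster, from Ccl2 to Ccl8, the log2 fold changes in GLA-SE against PBS were 1.68, 2.26, 2.05 for Ccl11, 1.37 for Ccl12 and 1.39. Ccl11, the eosinophil attractant also called eotaxin, had 146 to 230 scaled counts in PBS and 588 to 1209 in GLA-SE (edgeR adjusted p = 0.000333). Ccl1, the next chemokine gene, had a log2 fold change of 0.26 (adjusted p = 0.416) with overlapping groups and 22.7 to 47.0 scaled counts.

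Among 17 other CC chemokine genes, 12 were higher in GLA-SE than in PBS and none was lower, against 68.4% of the panel, with a median log2 fold change of 1.43 against 0.90. The call of Ccl20 was lost without GLA-SE replicate 4, PBS replicate 3 or PBS replicate 4 (edgeR adjusted p 0.0536 to 0.0558). Ccl21a, which guides cells to lymphoid tissue, had the largest at 3.58 ± 1.35 (edgeR adjusted p = 0.0404), with groups that overlapped, and without GLA-SE replicate 1 it was 1.53 (adjusted p = 0.197). Its adjusted p was also 0.0537 to 0.0949 without GLA-SE replicate 2 or any one of PBS replicates 1, 2 and 4, and its log2 fold change was 4.58 without PBS replicate 3. The T cell attractant Ccl5 had 3.33 ± 0.72 (0.00402; 2.16 without GLA-SE replicate 3) and Ccl22 had 2.49 ± 0.44 (0.00166). Of 12 genes for monocyte growth factors and adhesion, 10 were higher. Among them were Cx3cl1 (1.64 ± 0.34, 0.00356), Vcam1 (1.77 ± 0.28, 0.00106) and Icam1 (1.47 ± 0.21, 0.000538). The products of Vcam1 and Icam1 hold monocytes on the vessel wall. The SE mean was above the GLA-SE mean for Ccl21a (3664 against 1210 scaled counts) and Cx3cl1 (103 against 94.8). It was below for Ccl5, Ccl22, Vcam1 and Icam1.

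Of 20 genes of TLR4 signaling and its inducible products, 16 were higher, beside 68.4% of the panel. Their median log2 fold change was 0.80 against 0.90 over the panel. The calls of Rela, Nfkb1, Ticam1 and Traf6 were lost when some single tumors were left out, with edgeR adjusted p of 0.0510 to 0.0788. The cytokine genes Il1b and Il6 had log2 fold changes of 5.20 ± 1.02 (edgeR adjusted p = 0.00254) and 4.08 ± 1.04 (0.00809), and Lbp, which carries lipid A to CD14, had 1.81 ± 0.36 (0.00258). Without GLA-SE replicate 3, the log2 fold change of Il1b was 3.64 and that of Il6 was 2.30. The SE mean of Lbp, 520 ± 603 scaled counts (SD), was above its GLA-SE mean of 354 ± 104. For Il1b and Il6 the SE means, 326 and 34.8, were below the GLA-SE means of 3972 and 215. In SE against PBS, edgeR called no gene of these lists. In GLA-SE against SE, edgeR called 1 of the 20 TLR4 genes and 1 of the 12 growth factor and adhesion genes, the integrin gene Itgal (log2 fold change 1.07 ± 0.15, adjusted p = 0.0110), which is named after its values were seen. Its adjusted p was 0.0508 without GLA-SE replicate 2, 0.0530 without GLA-SE replicate 4 and 0.0531 without SE replicate 3. None of the 17 other CC chemokine genes was called by edgeR in that comparison.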

How the data were processed

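RNA of 12 tumors was measured by the study with nCounter probes. The authors deposited 1 table of whole counts per gene and tumor. The study's methods name nSolver normalization, but the deposited totals and reference genes differed between tumors, so the values were treated as raw counts. Whether they were adjusted for background or positive controls is not given in the sources used here. No reads were aligned. Groups came from the sample labels. Each tumor was scaled to 16 of 20 reference genes, kept by the geNorm procedure over the 12 tumors. Alas1, Eef1g, G6pdx and Gusb were dropped.

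The 750 other genes were tested with edgeR 4.0.16 in R 4.3.3 (quasi-likelihood test, no filter, no covariates), with Benjamini-Hochberg adjustment and a threshold of 0.05. Only the 8 tumors compared entered each fit. Single values had exact two-sided permutation tests on log2(scaled count + 1). The fits were tested on simulated data. Changes were planted in a minority of genes, with rises and falls in equal number and noise independent between genes. The real tumors shifted mostly upward across the panel, so the shares found may differ there. For GLA-SE against PBS, with 750 genes, 76% of genes changed by a log2 fold of 1 and 99% of those changed by 2 were called. For SE against PBS the shares were 23% and 72%, and for GLA-SE against SE 8% and 57%. Precision is limited by the 4 tumors per group and by the counts.

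Alternatives were other reference genes, TMM, panel median or no scaling, a filter of 20 counts in 4 tumors, 1 fit of all 12 tumors, DESeq2 1.42.0, limma 3.58.1, the methods' t-test, the replicate number as a block, and leaving out each tumor, which for the listed genes was added after seeing the data.

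The members and gene lists were chosen with earlier results of these data known. Named genes are the members, the other receptors, the panel's neighbours of the members, the 3 most like genes, and from each other list the 3 largest changes among called genes with a group mean of at least 20. Some genes that this rule picks are not reported here. Gene positions and promoters are from RefSeq (GRCm38.p6), where all 5 symbols matched. No promoter is printed for Ccl2, Ccl7 or Ccr2. Figures were drawn with matplotlib 3.10.9.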

Additional observations from a re-analysis of the deposited data

Results flagged for a closer look

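Among 33 sets of 4 tumors (the members, their neighbours and the other receptors in each group), 2 held an outlying tumor by Dixon's test, whose rate of 5% would give 1.65 by chance. Ccr3 had 327 scaled counts in SE replicate 4 against 8.18 to 31.1 in the other SE tumors. The mast cell and eosinophil markers summed to 2540 scaled counts in that tumor and to 113 to 523 in the other SE tumors. Most of the 2540 was the mast cell gene Cma1, at 2051. The eosinophil gene Prg2 had a mean of 82.9 ± 65.4 (SD) over the SE tumors. The part of these cells in the Ccr3 value was not tested. Ccr8 had 46.4 scaled counts in GLA-SE replicate 3 against 28.1 to 29.0 in the other GLA-SE tumors. No member was among them.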

How the results depend on the processing

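In GLA-SE against PBS all 5 members were called under each alternative except TMM (3), the panel median (1) and DESeq2 with its own size factors (3), and in each fit that left out a tumor. The genes called there were 516, and 316 with TMM, 342 with DESeq2 on its own size factors and 255 with all 12 tumors in one fit. In SE against PBS no gene was called, except 9 by DESeq2 on its own size factors, 53 by DESeq2 on the reference-gene factors (1 member, Ccl7) and 1 by the methods' t-test. In GLA-SE against SE, 16 genes and no member were called, against 3 genes with TMM, 0 with the panel median, 89 without rescaling (1 member, Ccr2), 79 with all 12 tumors in one fit (1 member, Ccl12), 72 by DESeq2 on its own size factors and 108 by DESeq2 on the reference-gene factors (1 member, Ccl12). Leaving out a tumor gave 4 to 105 genes and 0 to 2 members there, with the highest of both without SE replicate 4 (Ccl12 and Ccr2). The fewest genes, 4, were called without GLA-SE replicate 2, GLA-SE replicate 4 or SE replicate 3, and 9 and 7 without SE replicates 1 and 2. The cause was not tested.

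Signs turned as follows. In SE against PBS, the log2 fold change of Ccl8 was -0.048 with TMM, -0.16 with the panel median and -0.0086 with DESeq2 on its own size factors. That of Ccr2 was -0.19, -0.29 and -0.16 under the same settings and -0.13 without rescaling, and it ranged from -0.17 (SE replicate 4 left out) to 0.76 when single tumors were left out. In GLA-SE against SE, that of Ccl7 was -0.16 with the panel median and ranged from -0.33 to 0.85 when single tumors were left out. It was negative when GLA-SE replicate 3 (-0.33), SE replicate 1 (-0.14) or SE replicate 2 (-0.15) was left out.

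With the replicate number as a block, 439, 0 and 0 genes and 5, 0 and 0 members were called in GLA-SE against PBS, SE against PBS and GLA-SE against SE. The numbers belong to different mice, and same-numbered tumors correlated by -0.25 to 0.18, so they were not taken as pairs. Among the receptors, Ccr3 and Ccr8 had PBS means of 25.7 and 20.3 scaled counts, the lowest of those described.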

Other observations

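The proportion of Ccl7 to Ccl2, the most alike pair of members, was compared between the groups. The ratio of Ccl7 to Ccl2 counts was 0.118, 0.0908, 0.140 and 0.116 in PBS replicates 1 to 4, 0.146, 0.150, 0.204 and 0.154 in GLA-SE, and 0.133, 0.134, 0.241 and 0.235 in SE. The log2 ratio was higher in GLA-SE than in PBS by 0.50, with the smallest exact permutation p that 4 against 4 allow, 0.0286, and no overlap between the groups (0.171 after adjustment over 6 tests, which does not pass the threshold). In SE against PBS the difference was 0.64 (exact permutation p = 0.0857). The ratio was taken without a pseudocount and does not depend on the scaling, and it was chosen after the tumors' values were seen. The ratio of Ccl2 to Ccl8, chosen in the same way, differed between GLA-SE and PBS by 0.17 (exact permutation p = 0.771).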
